A study of Mus musculus with 4 samples.

Results

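Premature stop codons were described in 7 genes of 2 mouse cancer cell lines. The genes are Chpf, Nup155, Ptpn14, Fbln2 and Aifm2, whose stops were listed in MBT2, and Sema6b and Utp20, whose stops were listed in LM8. The genes were chosen by these same read counts: each had a single-base substitution that turns a codon into a stop, was private (listed in 1 line and not in the other) and was carried by a fraction of at least 0.1 of the reads at its site. The lists name 5614 genes in all, and 59 of them had a private stop-gained substitution at any fraction.

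MBT2 is a bladder cancer line and LM8 an osteosarcoma line, both syngeneic with C3H/HeN mice, grown in culture without any treatment and differing in their culture medium. The sample titles call the first line MBT2#63, shortened to MBT2 here, and do not say what #63 marks. Poly(A) RNA of each line was sequenced in 2 libraries as pairs of 75-base reads. The titles of the duplicates of a line differ only in their last number, and the duplicates are not said to be separate cultures. P-values between libraries therefore measure only a spread that may be technical.

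A stop codon gained inside a reading frame ends translation early. Messenger RNAs with a stop well before their last exon junction are often removed by nonsense-mediated decay, while stops in the last exon usually escape it. The genes belong to unrelated pathways. Chpf encodes the chondroitin polymerizing factor, which works with chondroitin synthases to lengthen chondroitin sulfate chains. Nup155 encodes a scaffold protein of the nuclear pore. Ptpn14 encodes a tyrosine phosphatase that binds the Hippo pathway coactivator YAP. Fbln2 encodes fibulin-2, a secreted protein of basement membranes and elastic fibres. Aifm2, also known as FSP1, encodes an oxidoreductase that regenerates reduced coenzyme Q and protects membranes from ferroptosis. Sema6b encodes a transmembrane semaphorin, a ligand of plexins. Utp20 encodes a component of the machinery that processes ribosomal RNA for the small ribosomal subunit.

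The coding sequence around each stop is shown because it fixes the place of the change and its neighbours. Each line gives 51 bases, from 5′ to 3′ on the coding strand, of the reference transcript with the same identifier as in the variant list (GENCODE M21), with the changed codon in capitals. For each gene the sequence with the listed substitution comes before the reference sequence.
Chpf in MBT2: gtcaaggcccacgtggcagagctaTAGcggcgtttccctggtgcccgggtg
Chpf reference: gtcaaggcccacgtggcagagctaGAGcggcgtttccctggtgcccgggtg
Nup155 in MBT2, with both adjacent substitutions and both codons in capitals: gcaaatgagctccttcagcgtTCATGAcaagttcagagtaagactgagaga
Nup155 reference: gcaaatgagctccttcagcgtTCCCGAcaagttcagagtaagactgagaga
Ptpn14 in MBT2: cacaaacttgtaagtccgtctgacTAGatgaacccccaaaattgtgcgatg
Ptpn14 reference: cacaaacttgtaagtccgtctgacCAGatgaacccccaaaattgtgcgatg
Fbln2 in MBT2: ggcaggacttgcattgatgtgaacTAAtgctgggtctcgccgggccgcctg
Fbln2 reference: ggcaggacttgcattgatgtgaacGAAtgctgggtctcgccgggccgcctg
Aifm2 in MBT2: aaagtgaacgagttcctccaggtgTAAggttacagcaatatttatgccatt
Aifm2 reference: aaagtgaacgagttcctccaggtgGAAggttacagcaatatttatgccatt
Sema6b in LM8: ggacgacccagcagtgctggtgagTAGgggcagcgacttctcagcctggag
Sema6b reference: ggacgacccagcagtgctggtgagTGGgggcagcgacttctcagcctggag
Utp20 in LM8: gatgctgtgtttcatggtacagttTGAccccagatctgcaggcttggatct
Utp20 reference: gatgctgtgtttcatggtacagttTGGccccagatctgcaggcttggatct

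In these lines, glutamate codons became stops through G-to-T changes on the RNA strand in Chpf, Fbln2 and Aifm2. The Nup155 arginine codon and the Ptpn14 glutamine codon became stops through C-to-T changes, and the changed Nup155 base is followed by G in the reference. Both LM8 stops replace tryptophan through G-to-A changes. Only some codons can reach a stop by 1 substitution, so the choice of stops limits the changes that can appear. For comparison, G-to-T on the RNA strand made up 20.4% of 387 private coding substitutions at a fraction of at least 0.1 in MBT2 (codons matched to a reference transcript) and G-to-A made up 24.6% of 211 in LM8.

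Of the 7 stops, that of Chpf in MBT2 had the most reads and the highest allele fraction. E573* (chromosome 1, position 75452222, GRCm39, exon 4) was carried by 58 of 213 reads in library 1 and 62 of 207 in library 2. Together this was 28.6% of 420 reads (exact binomial 95% interval 24.3 to 33.2), at 27.2% and 29.95% in the libraries. Intervals here and below cover counting error only, because amplified reads do not each stand for a separate molecule. The libraries lay close to each other, within 2.72 percentage points.

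Nup155 R885* (chromosome 15, position 8173559, exon 24) was carried by 13 of 70 and 18 of 71 reads, which is 22.0% of 141 reads (15.5 to 29.7). Ptpn14 Q516* (chromosome 1, position 189582700, exon 13) was carried by 4 of 28 and 8 of 34 reads, or 19.4% of 62 reads (10.4 to 31.4). In both genes library 2 had the higher share. The intervals of the Nup155, Ptpn14 and Chpf stops overlap.

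The remaining MBT2 stops rest on few reads. Fbln2 E941* (chromosome 6, position 91243305, exon 14) was carried by 4 of 27 and 2 of 24 reads, or 11.8% of 51 reads (4.44 to 23.9). Aifm2 E275* (chromosome 10, position 61571290, exon 8) was carried by 2 of 18 and 1 of 12 reads. These 3 reads of 30 put Aifm2 exactly at the limit of 10.0%, with an interval of 2.11 to 26.5, so the word clear does not describe this stop. Of the private MBT2 substitutions at or above the limit, 3.13% rest on 3 or fewer alternative reads.

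In LM8, Utp20 W1186* (chromosome 10, position 88618441, exon 28) was carried by 4 of 24 and 5 of 22 reads, or 19.6% of 46 reads (9.36 to 33.9). Sema6b W496* (chromosome 17, position 56433337, exon 14) was carried by 2 of 23 and 4 of 24 reads, or 12.8% of 47 reads (4.83 to 25.7). Both shares were lower in library 1. The file also counts fragments, in which the mates of a pair are joined, and the 6 Sema6b alternative reads came from 3 fragments of 29 (10.3%). At the other 6 stops, fragments and reads gave the same counts.

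**Figure D1:**
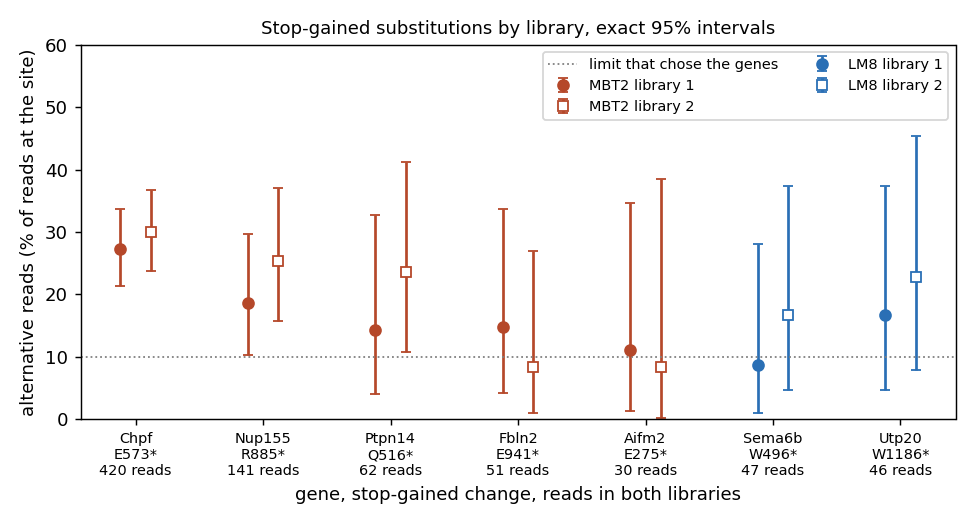
Share of reads with the stop-gained allele (percent of reads at the site, vertical axis) in each of the 2 libraries of the line that lists it, with exact 95% intervals; the dotted line is the limit of 10% that chose the genes. Chpf has the narrowest intervals with 420 reads, while Fbln2, Aifm2 and Sema6b each have 1 library below the dotted line.

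These shares chose the genes, so none was tested between lines or against other variants. As a description, private missense substitutions at or above the limit had a median of 31.4% of reads in MBT2 (267 variants, quartiles 22.3 and 50.03) and 18.1% in LM8 (148 variants, quartiles 12.9 and 22.2). Chpf lay between the MBT2 quartiles, the Nup155 stop just below the lower one, and the Ptpn14, Fbln2 and Aifm2 stops below it. The exact intervals of the Nup155, Ptpn14, Fbln2 and Aifm2 stops all reached above this quartile. Utp20 lay between the LM8 quartiles and Sema6b just below the lower one. Private stop-gained substitutions numbered 40 in MBT2 and 19 in LM8, of which 7 and 2 reached the limit, so stops made up 0.685% of 1022 private MBT2 substitutions at or above it and 0.275% of 727 private LM8 ones. The remaining MBT2 stops past the limit, in Setd2 and Tsc1, are not described here. Just outside it were Ugdh in MBT2 at 8.82% (6 of 68 reads) and Cenpj in LM8 at 8.0% (2 of 25 reads), and just inside were Aifm2 at 10.0% in MBT2 and Sema6b at 12.8% in LM8.

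No listed variant of the 7 genes differed between duplicate libraries past the threshold. The genes held 17 listed variants over both lines. Fisher's exact test (two-sided) on reads gave an adjusted p of 1 at each of the 17 (Benjamini-Hochberg over all sites of a line), and an unadjusted p under 0.05 at 0 of them. Across the lists the adjusted test called 0 of 6361 MBT2 sites and 0 of 5445 LM8 sites, a share of 0 percent, and the unadjusted one called 3.76% and 3.89%. With the reads at hand, a difference between duplicates at Aifm2, Sema6b or Utp20 would have to be large to be detectable.

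The stops cut the reading frames at very different places. The losses given here are read from the annotated transcript of each stop, and no protein was measured. Utp20 would lose the most: its stop leaves 1185 of 2789 codons and would remove 57.5% of the protein. Ptpn14 keeps 515 of 1189 codons and loses 56.7%, which includes the phosphatase domain, known to lie at the carboxyl end of this protein. Sema6b keeps 495 of 886 codons (44.1% lost) and Nup155 loses 507 of 1391 (36.4%). Aifm2 keeps 274 of 380 codons (27.9% lost), Chpf 572 of 774 (26.1% lost) and Fbln2 940 of 1221 (23.0% lost).

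Chpf is the exception in its exon structure. Its stop lies in the last of 4 exons, 648 bases past the last exon junction. The other 6 stops lie before the last junction. For Aifm2 the distance is 148 bases, with 1 exon still to follow. Sema6b W496* lies 258 bases before it, Fbln2 E941* 488, Nup155 R885* 1385, Ptpn14 Q516* 1896 and Utp20 W1186* 4657 bases. Within its exon the Utp20 stop is the 7th base from the 3′ end and the Fbln2 stop the 9th base from the 5′ end. The last-exon stop thus had the highest fraction of the 7, but whether the place of a stop bears on its share of reads was not tested, and the lists give no RNA level for either allele.

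**Figure D2:**
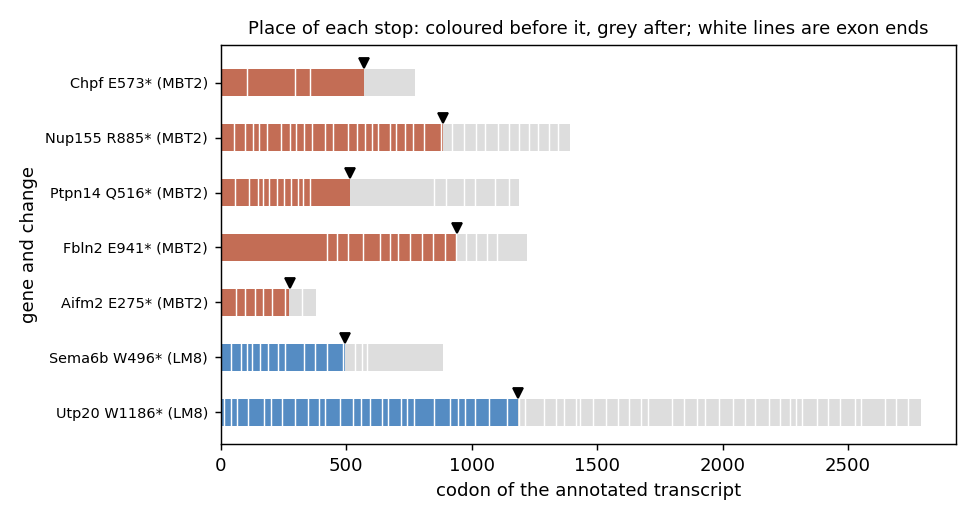
Coding sequence of the annotated transcript of each gene in codons (horizontal axis), coloured up to the stop (red-brown for MBT2, blue for LM8) and grey after it, with exon ends as white lines and the stop as a black mark. The Chpf mark stands in the last exon, and the Utp20 and Ptpn14 marks stand before the middle of their proteins.

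Not every isoform contains the changed base. In the reference annotation it lies in the coding sequence of both Chpf and both Nup155 coding transcripts, of both Sema6b ones and of all 4 Aifm2 ones. It lies in 1 of 2 Ptpn14, 2 of 5 Fbln2 and 1 of 3 Utp20 coding transcripts. Which isoforms the lines express cannot be read from the lists.

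Of the 7 genes Nup155 had the most listed variants, 5 in MBT2 and 2 in LM8. Over all genes with a listed variant the median was 1 in each line. The stop does not stand alone: the base before it, at position 8173558, carries a silent change of the preceding serine codon. Both substitutions had the same counts, 13 of 70 and 18 of 71 alternative reads, and the caller placed them in 1 phase set, so they form the double change printed above. A missense change, D679Y (position 8166127, exon 19), lies upstream of the stop and was carried by 8 of 27 and 1 of 21 reads, or 18.8% of 48 reads (8.95 to 32.6). Its libraries differed by 24.9 percentage points with higher values in library 1, the largest gap between duplicates in any of the 7 genes, and the exact test gave an unadjusted p of 0.0584 and an adjusted p of 1.

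The other 2 Nup155 sites lie in the 3′ UTR and were listed in both lines as A-to-G substitutions. At position 8188973, 1725 bases into the UTR, 27.5% and 25.9% of reads were alternative in MBT2, against 6.56% and 9.68% in LM8. Both MBT2 libraries lay above both LM8 libraries, as at 16.5% of 230 shared substitutions. Summed over libraries the shares were 26.6% of 94 reads in MBT2 and 8.13% of 123 reads in LM8, 18.5 percentage points apart (two-sided Fisher's exact test, adjusted by Benjamini-Hochberg over 1261 shared sites, p = 0.00661). The test called 1.9% of all shared sites higher and 5.39% lower in MBT2, and 4.35% of the shared substitutions higher. Without MBT2 replicate 1, MBT2 replicate 2 or LM8 replicate 1 the adjusted p of the exact test was 0.0594, 0.0767 and 0.191, so the call rests on the reads of all these libraries together. At position 8187674, 426 bases into the UTR, the shares were 15.9% and 6.90% in MBT2, against 4.55% and 1.45% in LM8. The groups again did not overlap, but the difference of 8.24 points did not pass the threshold (exact test, adjusted p = 0.0736). MBT2 replicate 1 carried much of this difference, which was 3.71 points without it (adjusted p of the exact test 0.798). Without MBT2 replicate 2 it was 12.7 points and passed (adjusted p of the exact test 0.0169). Leaving out LM8 replicate 1 or 2 gave 9.98 and 6.88 points (adjusted p of the exact test 0.159 and 0.521). Fisher's test on summed reads compares these libraries and not repeated cultures. With 2 libraries against 2, an exact permutation test over libraries cannot go below p = 0.333.

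**Figure D3:**
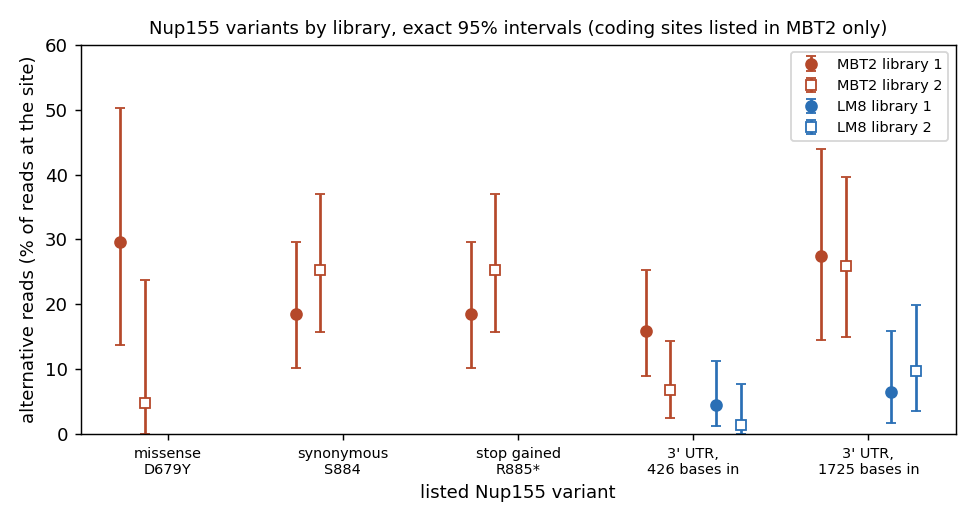
Share of alternative reads (percent, vertical axis) at each listed Nup155 site, per library, with exact 95% intervals. The synonymous and stop-gained sites have the same values, and at both 3′ UTR sites the MBT2 libraries stand above the LM8 libraries.

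Ptpn14 was hit in both lines, by different substitutions. LM8 carried V761A (position 189583436, exon 13) in 1 of 76 and 3 of 63 reads, or 2.88% of 139 reads (0.790 to 7.20). It also carried R775S (position 189597636) in 4 of 67 and 3 of 45 reads, or 6.25% of 112 reads (2.55 to 12.5). R775S is numbered on another transcript and corresponds to residue 1115 of the transcript that carries the MBT2 stop, so both LM8 changes lie in the part that the stop at residue 516 would remove. One more LM8 change, in the 3′ UTR at position 189608357, was in 3 of 77 and 1 of 68 reads (3.90% and 1.47%), or 2.76% of 145 reads. All 3 were below the limit, and none was listed in MBT2.

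The other genes had little beside the stop. Chpf, Fbln2, Aifm2 and Sema6b had no second listed variant in either line. Having 1 is usual: 65.9% of 3933 genes with a listed variant in MBT2 and 69.3% of 3495 in LM8 had 1. At the Sema6b stop the caller counted 2 events in the region, of which only the stop is listed. In the annotation Utp20 had a second LM8 variant, a single-base insertion at position 88579757 in 6 of 140 and 14 of 165 reads (4.29% and 8.48%), or 6.56% of 305 reads, placed downstream of one of its transcripts. The libraries are directional, and Utp20 lies on the minus strand. At the Utp20 stop, 42 oriented reads had the pair orientation of minus-strand genes and 1 the opposite, while at the insertion 0 had that orientation and 286 the opposite one. The insertion was therefore not read from RNA of the Utp20 strand. At the Chpf and Sema6b stops all 372 and 24 oriented reads, and at the Nup155, Ptpn14, Fbln2 and Aifm2 stops all 134, 60, 51 and 30, had the orientation of the gene's own strand. Within 10000 bases of a stop, the only listed variant of another gene was a 3′ UTR substitution of Macroh2a2 in LM8 (1.97% of 305 reads), 3335 bases from the Aifm2 site. None of the 7 stop positions was listed in the other line, and reads of unlisted sites were not analysed here, so absence from that line was not measured.

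The LM8 stops differed from the MBT2 stops in where the changed base sat in the reads. In the MBT2 genes the median distance of the alternative base from the read end was 13 bases in Chpf, 16 in Nup155, 28 in Ptpn14, 10 in Fbln2 and 16 in Aifm2. It was 1 base in Sema6b and 1 base in Utp20, the lowest value that the filter setting in the file headers lets pass. Both Sema6b and Utp20 are thus among the 10.3% of 727 private LM8 substitutions at or above the limit with a median distance of 1 base, a group that made up 8.22% of 1022 in MBT2. The median distance was 16 bases over those LM8 substitutions and 17 over the MBT2 ones.

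Read direction showed the same split. The direction counts of the list place all 6 Sema6b and all 9 Utp20 alternative reads on the forward genome strand, against 56.1% and 73.0% of their reference reads. Alternative reads ran in both directions at all 5 MBT2 stops of the 7 genes, for example 56 forward and 64 reverse at Chpf and 13 forward and 18 reverse at Nup155. They did so at 6 of all 7 private MBT2 stops at or above the limit. One direction only was seen at 36.5% of private LM8 substitutions at or above the limit and at 25.8% of those in MBT2. Fisher's exact test of direction between alleles, adjusted over all sites of a line, called 0 of the 17 variants (0 at an unadjusted p under 0.05). Its share of calls over all sites was 3.49% in MBT2 and 2.72% in LM8 (13.4% and 11.4% unadjusted). The lowest p was that of Sema6b (exact test, unadjusted p = 0.0691, adjusted p = 0.467). The test counts reads, and the 6 Sema6b alternative reads came from 3 fragments, so they are not separate observations of direction. Mates of a pair run in opposite directions, and how the list gave both the same direction is not known. The part that read ends and read direction play in the LM8 stops was not tested.

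**Figure D4:**
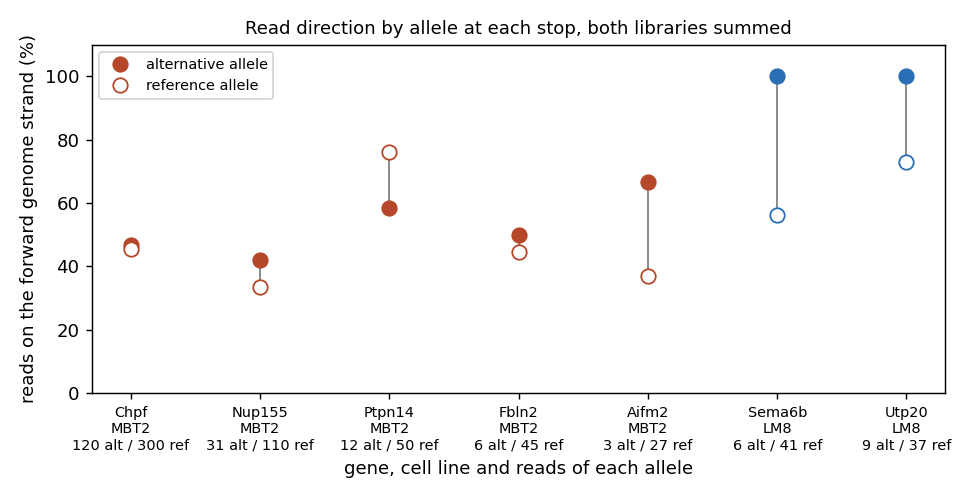
Percent of reads on the forward genome strand (vertical axis) for the alternative allele (filled) and the reference allele (open) at each stop, both libraries summed, with read numbers under each gene. The Sema6b and Utp20 alternative alleles stand at 100%, and at the MBT2 stops both directions occur.

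Tryptophan stops at the read end were frequent in the whole lists. Of 59 private stop-gained substitutions, 24 replaced tryptophan. Among these 24, a median distance of 1 base from the read end was found in 14, and alternative reads in 1 direction only in 19. Among the 35 that replaced another residue the counts were 2 and 13. Both marks together were found in 12 substitutions, and all 12 replaced tryptophan. The marks were also usual over all private substitutions of any effect and fraction. There a median distance of 1 base was found at 29.9% of 2939 in MBT2 and 32.9% of 2572 in LM8. Alternative reads in 1 direction only were found at 56.3% and 60.7%, and both marks together at 25.1% and 27.7%. In MBT2, 16 of the 33 stops below the limit replaced tryptophan and 0 of the 7 at or above it did. In LM8 it was 6 of 17 below the limit and both stops above it. The pattern was noticed after the values were seen, and its cause was not tested.

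**Figure D5:**
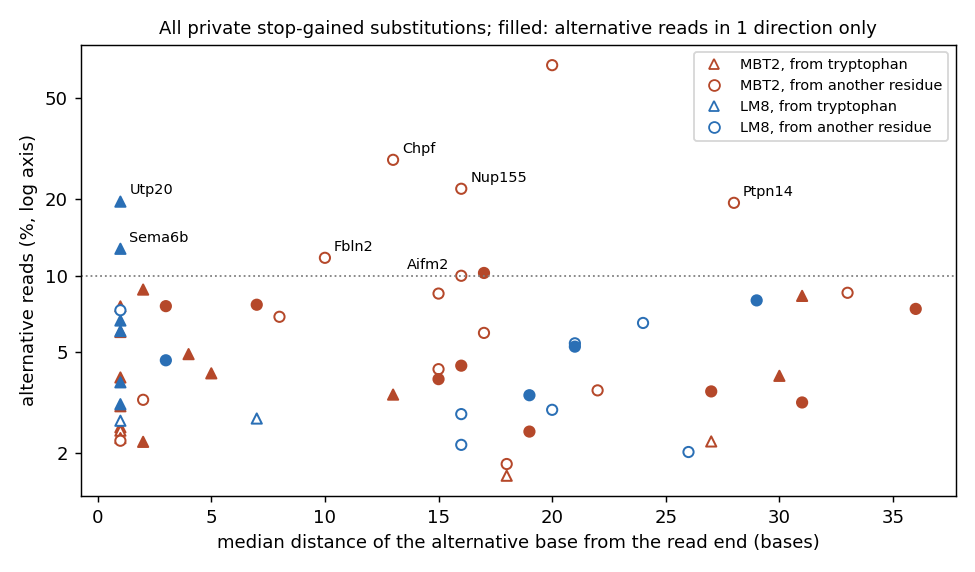
All 59 private stop-gained substitutions by median distance of the alternative base from the read end (bases, horizontal axis) and share of alternative reads (percent, log vertical axis); triangles replace tryptophan, filled marks have alternative reads in 1 direction only, the dotted line is the limit of 10%, and the 7 genes are named. Sema6b and Utp20 stand at 1 base, and the 5 MBT2 genes stand between 10 and 28 bases.

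The caller's likelihood ratios order the stops much as the alternative read numbers do, while its germline and strand scores order them otherwise. The log10 likelihood ratio for a real variant was 297 for Chpf, 105.1 for Nup155, 29.5 for Ptpn14, 16.7 for Utp20, 12.7 for Sema6b, 12.2 for Fbln2 and 5.88 for Aifm2. The Phred-scaled score against a germline origin was 93 for Chpf, 57 for Nup155, 35 for Fbln2, 28 for Sema6b, 13 for Aifm2, 12 for Ptpn14 and 3 for Utp20. A low score means that the caller had little evidence against an inherited allele, and the file headers name no normal sample. The caller's score against a strand artefact was 93 for Chpf, Nup155 and Ptpn14, 58 for Fbln2 and 30 for Aifm2. It was lowest at the LM8 stops, 12 for Utp20 and 7 for Sema6b. The alternative reads had a median mapping quality of 60 at all 7 sites.

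Genes that work with the 7 were counted from 8 partner lists, beside the share of all genes with a listed variant that carry a private protein-altering one, which was 36.7% of 3933 genes in MBT2 and 32% of 3495 in LM8. Nuclear pore genes had such a variant in 6 of 12 genes in MBT2 and 4 of 9 in LM8. In MBT2, the pore membrane gene Pom121 carried A931T in 27.3% of 866 reads and the scaffold gene Nup107 carried S433R in 11.3% of 106 reads, with all 12 alternative reads in 1 direction and a median distance of 2 bases from the read end. Nup93, a partner of Nup155 in the inner ring of the pore, carried F528C in LM8 in 24.7% of 380 reads.

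Semaphorin and plexin genes had 4 of 7 in MBT2 and 5 of 8 in LM8. The semaphorin receptor gene Plxnb2 carried R29C in 67.2% of 451 MBT2 reads, and the coreceptor gene Nrp1 carried D193E in 30.05% of 213. Plxna1, a plexin gene, carried P1023S in 64.9% of 322 LM8 reads, while Sema4d V674G was in 11.1% of 36 reads there, all of them in library 2. In the basement membrane and elastic fibre list the counts were 4 of 7 in MBT2 and 5 of 8 in LM8. In MBT2, the laminin gene Lamc1 carried D1589N in 36.2% of 864 reads and the fibrillin gene Fbn1 carried A2826T in 32.5% of 870 reads.

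Processome genes, which act with Utp20, had 9 of 22 in MBT2 and 8 of 16 in LM8. In MBT2, Bysl carried E21Q in 27.96% of 279 reads. In LM8, Nol6 carried C671G in 19.5% of 262 reads and Pdcd11 carried G1385R in 17.8% of 101. Wdr36, named after its value was seen, carried the stop W134* in 3.98% of 201 MBT2 reads (0.962% in library 1 and 7.22% in library 2), with a median distance of 1 base from the read end and all 8 alternative reads in 1 direction. Hippo pathway genes had 3 of 14 in MBT2 and 1 of 13 in LM8, ferroptosis defence genes 4 of 12 and 1 of 9, and chondroitin sulfate genes 0 of 2 and 1 of 4. None of these 3 lists held a missense or stop-gained substitution at or above the limit, and the Hippo list held 1 splice acceptor substitution, in Frmd6 (91.4% of 35 MBT2 reads, named after its value was seen). Nonsense-mediated decay genes had 4 of 7 in MBT2 and 1 of 3 in LM8. Among those in MBT2 was Gspt1, a translation termination factor gene, likewise named after its value was seen. Its stop W366* was in 2.54% of 276 MBT2 reads, with a median distance of 1 base from the read end and all 7 alternative reads in 1 direction. The lists are small and no set test was made.

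Depth over the whole lists was even between duplicates. The MBT2 libraries held 742698 and 790762 reads at listed sites, with medians of 68 and 73 per site, and the LM8 libraries 596298 and 571088, with medians of 62 and 61. The median depth of private substitutions at or above the limit was 96.5 reads in MBT2 and 55 in LM8, both libraries summed, so Ptpn14, Fbln2 and Aifm2, with 62, 51 and 30 reads, and Sema6b and Utp20, with 47 and 46, lay below their line's median. The lists hold no expression levels, so the cell types could not be checked by marker levels. Of 11 urothelial and epithelial markers 0 had a listed variant in either line, and of 10 osteoblast and mesenchymal markers 0 had one in MBT2 and 3 in LM8 (Col1a1, Col1a2 and Runx2). Of 5 markers of other cells 0 had one in either line. A listed variant is not a measure of expression, so these counts do not identify the cells.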

How the data were processed

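The deposited data are 1 list of sequence variants per line (variant call format 4.2, GRCm39), with read counts per allele and library. Each list gives both libraries of a line and names no normal sample. Variants were called with Mutect 2.2, filtered with FilterMutectCalls of GATK 4.1.5.0 (at most 2 events in a region, median read position of at least 1) and annotated with SnpEff 5.1d and database 105, per the file headers. The submitters' processing notes name bcl2fastq 2.17.1.14, cutadapt 1.9.1, STAR 2.7.9a and GATK 4.3.0.

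Fractions are alternative over all reads, summed over the 2 libraries. Intervals are exact Clopper-Pearson 95% intervals. Two-sided Fisher's exact tests were used, with Benjamini-Hochberg adjustment over whole lists and a threshold of 0.05. Only the test between libraries was tried on simulated reads, with large planted differences at sites of higher depth. The simulation therefore does not bear on the other tests, nor on small differences or sites with few reads. The tests of read direction and of shared sites were added after the values were seen. Stops were placed in GENCODE M21 transcripts by identifier and residue, where the codon matched at 99.1% of coding substitutions in each line. None of that release's GRCm38 coordinates is given. Long deletions are those of 21 or more bases. All 7 genes and all their variants are named, with partner genes that carry a missense or stop-gained substitution at a fraction of 0.1 or more. The genes and the partner lists were chosen with earlier results of these data known. Python 3.11.15, scipy 1.17.1, pandas 2.3.3, statsmodels 0.14.6 and matplotlib 3.10.9 were used.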

Additional observations from a re-analysis of the deposited data

How the results depend on the processing

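The allele fraction of each of the 7 stops stayed within its exact 95% interval in all 35 alternative values (either library left out, the mean of the libraries, the caller's estimate, and fragments in place of reads). These values reuse the reads that chose the genes and the intervals are wide, so this is no independent check. Some fell below the limit of 10%. Without replicate 1 of MBT2, Fbln2 and Aifm2 were at 8.33%. Sema6b was at 8.70% without LM8 replicate 2, and the mean of the libraries put Aifm2 at 9.72%. The other alternative values were at or above the limit. The number of private stop-gained substitutions at the limit, 7 in MBT2 and 2 in LM8, depended on the limit, with 18 and 9 at 0.05 and 3 and 0 at 0.2. The caller's estimate gave 12 and 5. At 50 or more reads LM8 had 0. Alternative reads in both directions, or a median distance above 1 base from the read end, were required after seeing the data. Each left 0 in LM8, while in MBT2 they left 6 and 7. Leaving out 1 library gave 8 to 9 in MBT2 and 3 to 4 in LM8. Of the 8 LM8 variants in the genes, 2 had a fraction of 0.1 or more.

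Partner counts fell by over 1.5 times in 11 of 32 results. Without long deletions the Hippo list had 1 gene in MBT2, the elastic fibre list 3 in LM8 and the ferroptosis list 2 in MBT2. With substitutions only the counts were 2 for the nuclear pore in either line, 1 for Hippo and 1 for ferroptosis in MBT2, 2 for elastic fibres and 0 for chondroitin sulfate in LM8, and 5 for the processome in either line. These alternatives use fewer variants by construction.

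With the library number as a replicate block (Cochran-Mantel-Haenszel test), the adjusted p at the Nup155 3′ UTR sites was 0.00592 at position 8188973 (18.5 points) and 0.0427 at position 8187674 (8.24 points), where the exact test did not pass. The labels do not say that equal numbers mark a shared day or culture, so they pair nothing. Depth limits what can be said of Aifm2, Fbln2, Sema6b and Utp20, each with 3 to 9 alternative reads.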
